A study of Mus musculus with 27 samples.

Results

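The genes for colony-stimulating factors and their receptors were examined in bulk RNA sequencing of mouse brain. The set holds 7 of the 55487 genes counted: the ligand genes Csf1 and Il34, the receptor gene Csf1r, the alpha chain gene Csf2ra, the beta chain genes Csf2rb and Csf2rb2, and the receptor gene Csf3r. Members were picked by name, as the features whose Ensembl identifier carries that symbol in GENCODE M21, and all 7 had enough counts to be tested. All animals were male wild-type C57Bl/6J mice, 8 weeks old, that received an infusion into the right lateral ventricle for 14 days at 0.25 μl/h from an osmotic pump. One group received PBS, one received control human IgG (pCtrl), and one received α-IgLON5#1, a human autoantibody against the neuronal surface protein IgLON5. The sample labels call the control a non-reactive monoclonal IgG, whereas the study's text describes IgG from healthy serum, and the name pCtrl is used here for those libraries. Hippocampus and cortex of the hemisphere opposite the infusion were sequenced. Hippocampus gave 5 PBS, 4 pCtrl and 4 α-IgLON5#1 libraries, and cortex gave 5, 5 and 4. The number that opens each library's title was taken as the mouse, so the 27 libraries came from 14 mice, and mouse 11 gave cortex only.

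Library totals ran from 19385642 to 58550621 counts with a median of 34061205. The labels give neurons as the cell type, but the material was tissue: the summed level of 9 neuronal markers lay between 6000 and 8820 CPM (counts scaled to the library's total) and that of 6 astrocyte markers between 4670 and 7200 CPM over all libraries. No pair of libraries within a group looked like 1 library deposited again, with a chi-square per degree of freedom of at least 4.42 over 48 pairs. Mouse 8 of the α-IgLON5#1 group stood apart for several of the genes below, and the fold changes of Csf1, Csf2rb and Csf2rb2 are given with and without its libraries. In the hippocampus, the pCtrl libraries of mice 37 and 10 stood nearest to cortex on a score of tissue composition built from genes that separate the PBS tissues, at 1.71 and 1.03 above the hippocampal mean.

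The CSF1 receptor is a receptor tyrosine kinase that microglia and other macrophages need to survive, and it has a pair of ligands that are unrelated in sequence, CSF1 and IL-34. In the brain, IL-34 comes mainly from neurons and is abundant in forebrain cortex, and CSF1 comes mainly from glia. The GM-CSF receptor joins a ligand-specific alpha chain to a shared beta chain, and mice carry an additional beta chain gene, Csf2rb2, whose product serves IL-3. The G-CSF receptor, encoded by Csf3r, is best known from neutrophils and is also made by other myeloid cells.

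The genes lie on separate chromosomes of GRCm38 apart from the beta chain pair. Csf1 is at chr3:107741048-107760469 on the minus strand, Il34 at chr8:110741829-110805924 on the minus strand, and Csf1r at chr18:61100598-61132149 on the plus strand. Csf2ra is at chr19:61223957-61228429 on the minus strand and Csf3r at chr4:126024550-126044440 on the plus strand. Csf2rb is at chr15:78325752-78353847 on the plus strand, and Csf2rb2 is beside it at chr15:78282507-78305721 on the minus strand. Part of the annotated exons is shared with genes on the other strand for Il34 (4.95% of its exon bases, 2 antisense transcripts) and Csf1r (mainly Hmgxb3, 15.1% of its exon bases). The strand setting of the counting is not given in the sources used here, so reads of those stretches may belong to either gene.

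Receptor genes rose with α-IgLON5#1 and the ligand genes did not pass the test. In the hippocampus, 4 of the 7 genes were higher with α-IgLON5#1 than with pCtrl at an adjusted p under 0.05 (edgeR quasi-likelihood test, Benjamini-Hochberg over 20271 genes): Csf1r, Csf2rb, Csf2rb2 and Csf3r. Over all genes tested, 4.23% were higher by the same rule, and the median log2 fold change was 0.72 for the 7 genes against 0.00 for all genes. In the cortex 4 of 7 were also higher, with Csf2ra in place of Csf1r, against 3.01% of all genes. Against PBS, Csf1r, Csf2rb and Csf3r were higher in the hippocampus (3 of 7, against 3.81% of all genes), and Csf2rb, Csf2rb2 and Csf3r in the cortex (3 of 7, against 2.97%). None of the 7 was lower in any of these comparisons. In the hippocampus, the libraries of the compared groups did not overlap, in either direction, for 11.7% of all genes against pCtrl and 5.64% against PBS. In the cortex these shares were 6.35% and 4.4%. Without both libraries of mouse 8, 4 of 7 passed against pCtrl in each tissue, where 2.83% of all genes were higher in the hippocampus and 1.78% in the cortex. The comparisons with pCtrl and with PBS share the same α-IgLON5#1 libraries.

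**Figure D1:**
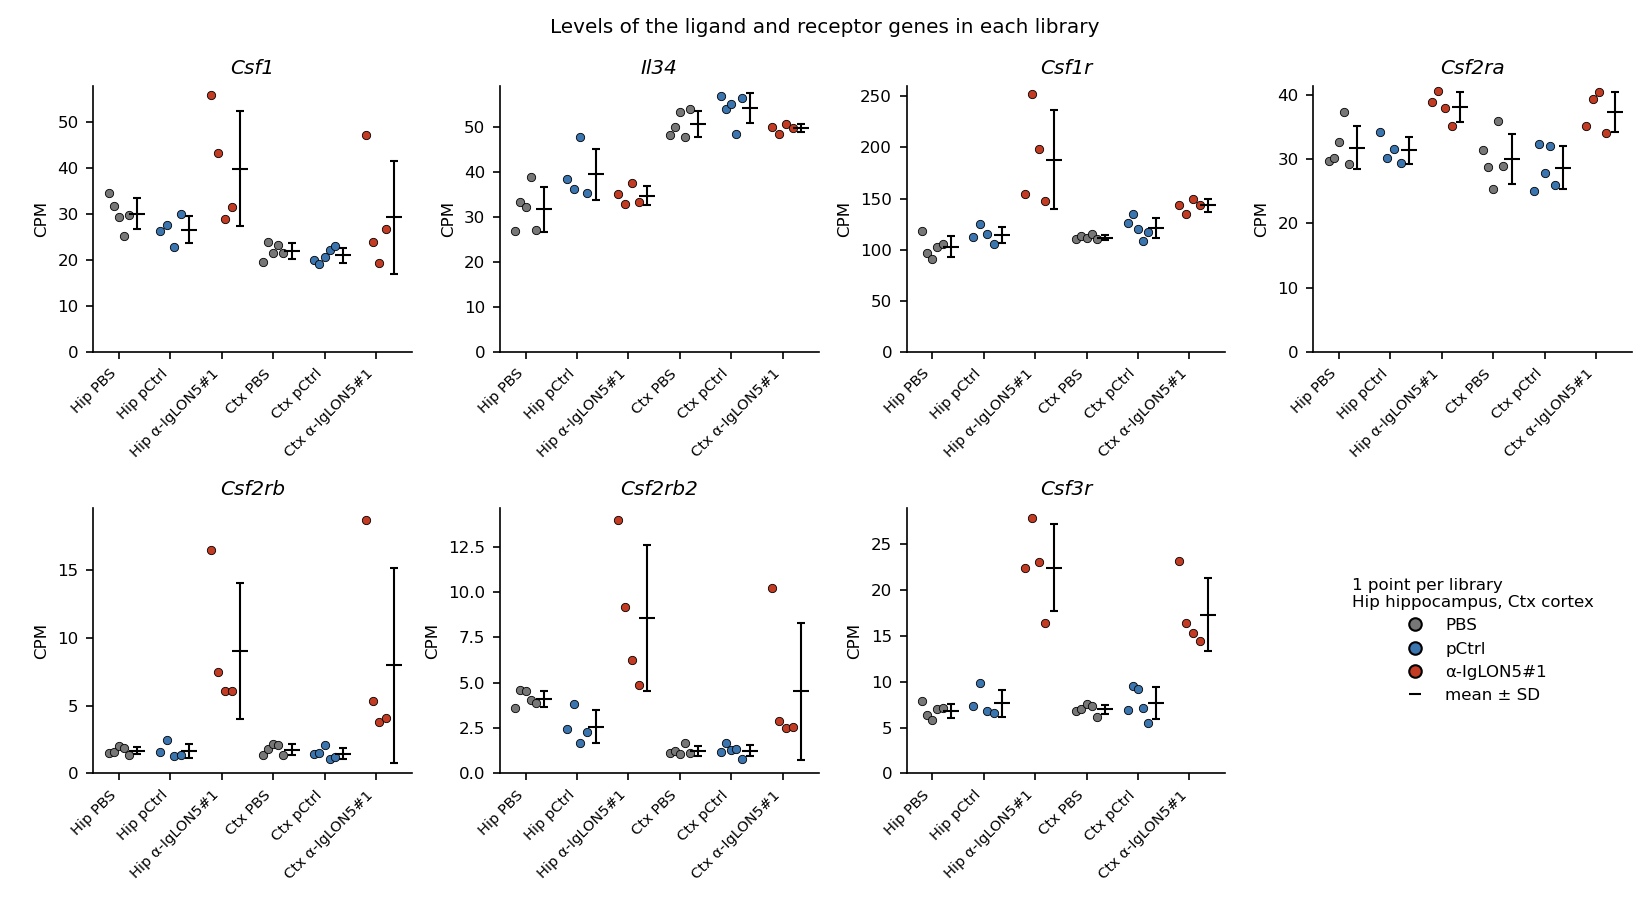
Levels of the 7 genes in CPM (vertical axes, linear from 0), 1 point per library, in the 3 infusion groups of hippocampus (Hip) and cortex (Ctx); bars give the mean ± SD. Csf2rb, Csf2rb2 and Csf3r stand higher in every α-IgLON5#1 library than in any control library of the same tissue, and Il34 is higher in cortex than in hippocampus within each infusion group. Libraries of α-IgLON5#1 and pCtrl did not overlap, in either direction, for 11.7% of all genes in hippocampus and 6.35% in cortex.

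The control antibody by itself moved none of the 7 genes past the threshold. In the hippocampus, pCtrl against PBS called 0.133% of all genes higher and 0.0592% lower. In the cortex it called 0% in either direction, with 1650 genes at an unadjusted p under 0.05. Of the 7 genes, 1 had an unadjusted p under 0.05 in the hippocampus and 0 in the cortex. Il34 came nearest, in the hippocampus, at a log2 fold change of 0.31 ± 0.09 (SE, adjusted p = 0.0911, edgeR), with pCtrl libraries between 35.2 and 47.7 CPM and PBS libraries between 26.9 and 38.8 CPM. The highest of the pCtrl values was that of mouse 37, one of the libraries nearest to cortex in composition. DESeq2 put the same Il34 difference at an adjusted p of 0.0331, and with edgeR it passed in 3 of the 9 fits that each left out 1 library. Over those fits the log2 fold change ran from 0.21 without pCtrl mouse 37 (adjusted p = 0.603, edgeR) to 0.39 without PBS mouse 38 (adjusted p = 0.0292, edgeR).

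Csf1, the ligand gene for the growth factor CSF1, was higher on average with α-IgLON5#1 but varied between the mice of that group. Its hippocampal level was 55.8, 43.3, 28.8 and 31.4 CPM in α-IgLON5#1 mice 8, 9, 16 and 17. The pCtrl libraries of mice 10, 15, 37 and 75 held 26.2, 27.5, 22.7 and 29.9 CPM, and the PBS libraries lay between 25.2 and 34.4 CPM. Mice 8 and 9 were above every control library and the other two α-IgLON5#1 mice were within the control range. The log2 fold change against pCtrl was 0.58 ± 0.19 (SE, adjusted p = 0.0692, edgeR) and missed the threshold, and DESeq2 gave an adjusted p of 0.036. Leaving out the hippocampal library of mouse 16 or of mouse 17, which held the lowest levels, gave 0.0226 and 0.0429 with edgeR, and leaving out that of mouse 8, which held the highest, gave 0.319. In the cortex the 4 α-IgLON5#1 libraries held 47.1, 23.9, 19.4 and 26.6 CPM in the same order of mice, and the pCtrl libraries lay between 19 and 23.1 CPM, a log2 fold change of 0.48 ± 0.18 (SE, adjusted p = 0.179, or 0.0338 without the library of mouse 16 and 0.756 without that of mouse 8, edgeR). Without both libraries of mouse 8 the log2 fold change was 0.37 in the hippocampus (adjusted p = 0.112, edgeR) and 0.16 in the cortex (adjusted p = 0.687, edgeR).

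Il34, the gene of the other CSF1 receptor ligand, did not pass with edgeR on all libraries in any comparison between the infusion groups. Hippocampal α-IgLON5#1 libraries held 35.0, 32.9, 37.5 and 33.4 CPM in mice 8, 9, 16 and 17, against 38.5, 36.3, 47.7 and 35.2 CPM in pCtrl mice 10, 15, 37 and 75. These ranges overlapped, and the log2 fold change was −0.18 ± 0.09 (SE, adjusted p = 0.261, edgeR). With the composition score as a covariate the value was 0.03. Against PBS it was 0.13 ± 0.09 (SE, adjusted p = 0.541, edgeR) in the hippocampus and −0.02 in the cortex (adjusted p = 0.981, edgeR), and the hippocampal value was 0.36 (adjusted p = 0.00699, edgeR) without mice 32 to 38, an alternative chosen after seeing the data. Cortical levels were close together, with 48.5 to 50.7 CPM in the α-IgLON5#1 libraries and 48.5 to 56.9 CPM in the pCtrl libraries (log2 fold change −0.12, 95% interval −0.30 to 0.06).

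The balance of the ligands was also taken per library, as log2 CPM of Csf1 less that of Il34. In the hippocampus it was 0.15 ± 0.47 (SD, n = 4) with α-IgLON5#1 and −0.57 ± 0.36 (SD, n = 4) with pCtrl, a difference of 0.71 with p = 0.0571 (exact two-sided permutation test; 0.167 after adjustment over 6 comparisons). In the cortex it was −0.85 ± 0.55 (SD, n = 4) and −1.37 ± 0.16 (SD, n = 5), a difference of 0.52 with an exact permutation p = 0.0397 and an adjusted value of 0.167. With PBS the balance was −0.07 ± 0.36 (SD, n = 5) in the hippocampus and −1.20 ± 0.14 (SD, n = 5) in the cortex. The α-IgLON5#1 libraries differed from PBS by 0.22 (exact permutation p = 0.452) and 0.36 (exact permutation p = 0.198). The pCtrl libraries differed from PBS by −0.49 (exact permutation p = 0.0873) and −0.17 (exact permutation p = 0.111). The lowest hippocampal pCtrl value was −1.07, in mouse 37. No comparison of this balance between infusion groups passed after adjustment.

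Csf1r was the most abundant receptor of the set per length, and it rose in the hippocampus. Hippocampal α-IgLON5#1 mice 8, 9, 16 and 17 held 154, 252, 198 and 148 CPM. The pCtrl libraries of mice 10, 15, 37 and 75 held 112, 125, 115 and 106 CPM, and the PBS libraries of mice 14, 32, 33, 38 and 74 held 118, 97.2, 91.1, 103 and 106 CPM. All 4 α-IgLON5#1 libraries were above all 9 control libraries. Over all genes, 11.7% did not overlap with pCtrl and 5.64% with PBS in this tissue, in either direction. The log2 fold change was 0.72 ± 0.11 (SE, adjusted p = 0.000113, edgeR) against pCtrl and 0.87 ± 0.10 (SE, adjusted p = 1.98e-06, edgeR) against PBS. In the cortex the α-IgLON5#1 libraries held 144, 135, 150 and 144 CPM, the pCtrl libraries 126, 135, 120, 108 and 117 CPM, and the PBS libraries 110 to 115 CPM. The cortical log2 fold changes, 0.24 ± 0.10 against pCtrl (SE, adjusted p = 0.241, edgeR) and 0.36 ± 0.10 against PBS (SE, adjusted p = 0.0612, edgeR), did not pass, although all 4 libraries were above all PBS libraries. The change against PBS passed with DESeq2 (adjusted p = 0.0315), and with edgeR with no count filter (0.0289), with the compared groups fitted alone (0.00176) and with the composition covariate (0.05 after rounding). The response to α-IgLON5#1 over pCtrl was larger in the hippocampus by 0.48 on the log2 scale (95% interval 0.17 to 0.79), and this interaction had a p of 0.00414 alone and 0.252 adjusted over all genes, a test that called 0% of genes. A passing result in 1 tissue is therefore not shown to differ from the other.

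Because tissue was sequenced whole, more cells of a type and more RNA per cell cannot be told apart in these levels. The level of Csf1r was also set against other genes of microglia, cells that express it though not alone: per library, its log2 CPM less the mean log2 CPM of 10 markers of homeostatic microglia. This difference was 2.51 ± 0.15 (SD, n = 4) with α-IgLON5#1, 2.17 ± 0.11 (SD, n = 4) with pCtrl and 2.13 ± 0.08 (SD, n = 5) with PBS in the hippocampus. In the cortex it was 2.41 ± 0.16 (SD, n = 4), 2.18 ± 0.03 (SD, n = 5) and 2.17 ± 0.07 (SD, n = 5). In both tissues every α-IgLON5#1 library was above every control library. The exact two-sided permutation p was 0.0286 for hippocampus against pCtrl (0.0429 adjusted over 6 comparisons) and 0.00794 for each of the other 3 comparisons with α-IgLON5#1 (0.0159 adjusted), in each case the smallest p the numbers of libraries allow. The controls differed from each other by 0.04 in the hippocampus and 0.01 in the cortex. Leaving out any 1 of the 4 pCtrl libraries of the hippocampus left the difference there at 0.291 to 0.379, with an exact permutation p of 0.0571 (0.0857 adjusted), and leaving out the cortical library of mouse 8 brought the cortical differences to 0.15 and 0.16 (adjusted 0.0536 each).

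The markers behind that mean did not move as 1 block. In the hippocampus 5 of the 10 rose against pCtrl and none fell, where 4.23% of all genes were higher, among them the chemokine receptor gene Cx3cr1 (log2 fold change 0.89, adjusted p = 0.000113, edgeR). P2ry12, the gene of a purinergic receptor of resting microglia, stood at −0.37 (adjusted p = 0.241, edgeR). In the cortex 0 of the 10 passed against pCtrl with edgeR, and 5 had an unadjusted p under 0.05. All 8 pan-myeloid markers rose in both tissues against pCtrl, where 3.01% of all genes were higher in the cortex. Their summed level was 286 to 515 CPM in the hippocampus with α-IgLON5#1 and 126 to 164 CPM with pCtrl, and in the cortex it was 249 to 376 CPM and 119 to 162 CPM. The direction of the Csf1r difference depended on the markers it was set against. Less the mean log2 CPM of the 8 pan-myeloid markers, a comparison chosen after seeing the data and given no test, Csf1r stood lower with α-IgLON5#1, at 2.55 ± 0.13 (SD, n = 4) against 3.46 ± 0.10 (SD, n = 4) with pCtrl and 3.48 ± 0.07 (SD, n = 5) with PBS in the hippocampus. In the cortex it was 2.45 ± 0.48 (SD, n = 4), 3.50 ± 0.08 (SD, n = 5) and 3.51 ± 0.05 (SD, n = 5).

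**Figure D2:**
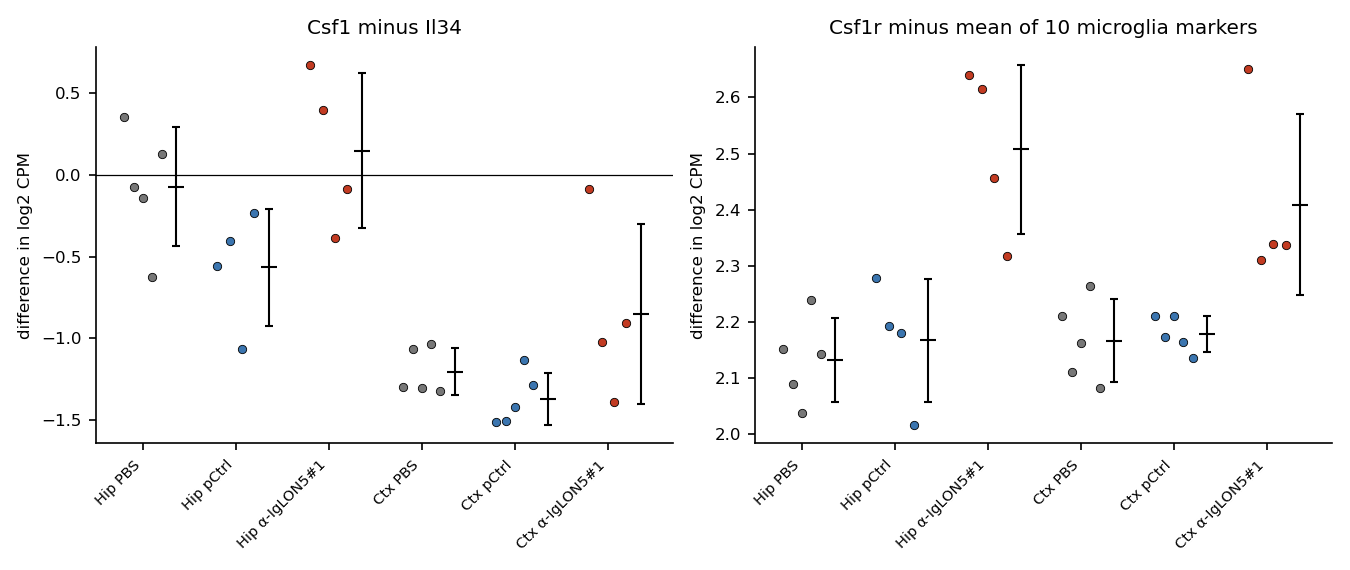
Differences in log2 CPM taken within each library (vertical axes), Csf1 less Il34 and Csf1r less the mean of 10 homeostatic microglia markers, 1 point per library with the mean ± SD of each group. The Csf1 balance lies lower in most cortical libraries, and the Csf1r difference is 2.31 or more in every α-IgLON5#1 library and at most 2.28 in every control library.

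The beta chain genes Csf2rb and Csf2rb2 are close copies, so the reads that tell them apart matter for what follows. Over 2628 aligned bases of their longest annotated coding sequences, 2503 (95.2%) were the same, and the longest run without a difference was 242 bases. Of all 75-base stretches in the GENCODE M21 transcripts, 7.15% of those of Csf2rb also occurred in Csf2rb2, and 10.6% of those of Csf2rb2 also occurred in Csf2rb. The 60-base coding stretch with the most differences within 1 exon is shown to make the distinction visible, 5′ to 3′ on each gene's own strand. Capitals mark the 13 differing bases. It lies at chr15:78338893-78338952 for Csf2rb (plus strand) and at chr15:78294379-78294438 for Csf2rb2 (minus strand) of GRCm38.
Csf2rb: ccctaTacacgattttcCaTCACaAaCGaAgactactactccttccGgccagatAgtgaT
Csf2rb2: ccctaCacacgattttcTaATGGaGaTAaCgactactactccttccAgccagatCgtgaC
How reads that match both copies were handled is not given in the sources used here, so part of the counts of either gene is uncertain, and the summed counts are given below as well.

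Csf2rb, the shared beta chain of the GM-CSF, IL-3 and IL-5 receptors, had the largest fold change of the 7 genes in each comparison of α-IgLON5#1 with a control. In the hippocampus α-IgLON5#1 mice 8, 9, 16 and 17 held 16.5, 7.49, 6.04 and 6.07 CPM, and pCtrl mice 10, 15, 37 and 75 held 1.57, 2.43, 1.28 and 1.33 CPM. In the cortex the same α-IgLON5#1 mice held 18.7, 5.30, 3.76 and 4.07 CPM, and pCtrl mice 10, 11, 15, 37 and 75 held 1.41, 1.49, 2.10, 1.09 and 1.23 CPM. The PBS libraries lay between 1.37 and 2.02 CPM in the hippocampus and between 1.37 and 2.15 CPM in the cortex. No α-IgLON5#1 library came down to the control range, and mouse 8 was far above the other 3 in both tissues. The log2 fold change against pCtrl was 2.43 ± 0.41 in the hippocampus (SE, adjusted p = 0.000355, edgeR) and 2.43 ± 0.39 in the cortex (SE, adjusted p = 0.000245, edgeR). Without both libraries of mouse 8 the changes were 1.97 and 1.56 and still passed, and the changes against PBS went from 2.43 to 1.97 in the hippocampus and from 2.17 to 1.31 in the cortex, and also passed.

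Csf2rb2, the beta chain gene known for IL-3 signalling, also rose against pCtrl, from a level that already differed between the tissues. Hippocampal α-IgLON5#1 mice 8, 9, 16 and 17 held 14.0, 9.18, 6.28 and 4.90 CPM, pCtrl mice 10, 15, 37 and 75 held 2.47, 3.85, 1.69 and 2.31 CPM, and PBS mice 14, 32, 33, 38 and 74 held 3.58, 4.58, 4.57, 4.04 and 3.86 CPM. The α-IgLON5#1 libraries were above both control groups, and mouse 17 was near the highest PBS library. The log2 fold change was 1.72 ± 0.36 against pCtrl (SE, adjusted p = 0.00399, edgeR) and 1.04 ± 0.33 against PBS (SE, adjusted p = 0.0811, edgeR), which did not pass, and with single libraries left out it ran from 0.70 without mouse 8 (adjusted p = 0.42, edgeR) to 1.24 without mouse 17 (adjusted p = 0.0372, edgeR), the 1 of 9 such fits that passed. The hippocampal changes without both libraries of mouse 8 were 1.37 against pCtrl (adjusted p = 0.000361, edgeR) and 0.70 against PBS (adjusted p = 0.0826, edgeR). The pCtrl libraries stood at −0.67 ± 0.34 against PBS (SE, adjusted p = 0.392, edgeR). The hippocampal result against pCtrl did not pass once tissue composition was a covariate (1.25, adjusted p = 0.275, edgeR). In the cortex the 4 α-IgLON5#1 libraries held 10.2, 2.89, 2.50 and 2.58 CPM, the pCtrl libraries 0.798 to 1.70 CPM and the PBS libraries 1.08 to 1.70 CPM. The cortical log2 fold change was 1.87 ± 0.37 against pCtrl (SE, adjusted p = 0.00217, edgeR) and 1.86 ± 0.36 against PBS (SE, adjusted p = 0.00169, edgeR), and without the cortex library of mouse 8 it was 1.09 for both (adjusted p = 0.0415 and 0.0344, edgeR). With the compared groups fitted alone the cortical change was 1.89 against either control and did not pass (adjusted p = 0.0602 and 0.0551, edgeR). With the counts of both copies added together, the log2 fold change against pCtrl was 2.04 in the hippocampus (adjusted p = 0.000991, edgeR) and 2.20 in the cortex (adjusted p = 0.000334, edgeR).

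The proportion of the beta chain copies differed between the tissues in the PBS libraries. Per kb of exon, Csf2rb2 stood at 3.32 to 4.51 times Csf2rb in the hippocampal PBS libraries and at 0.771 to 1.26 times in the cortical PBS libraries. The ratio was 2.03 to 2.67 in hippocampal pCtrl and 1.24 to 1.88 in hippocampal α-IgLON5#1 libraries, and these 3 groups did not overlap. Cortical pCtrl libraries held ratios of 0.928 to 1.87, which overlapped those of hippocampal α-IgLON5#1 libraries, and cortical α-IgLON5#1 libraries held 0.837 to 1.02. These ratios were compared after the values had been seen and were given no test.

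**Figure D3:**
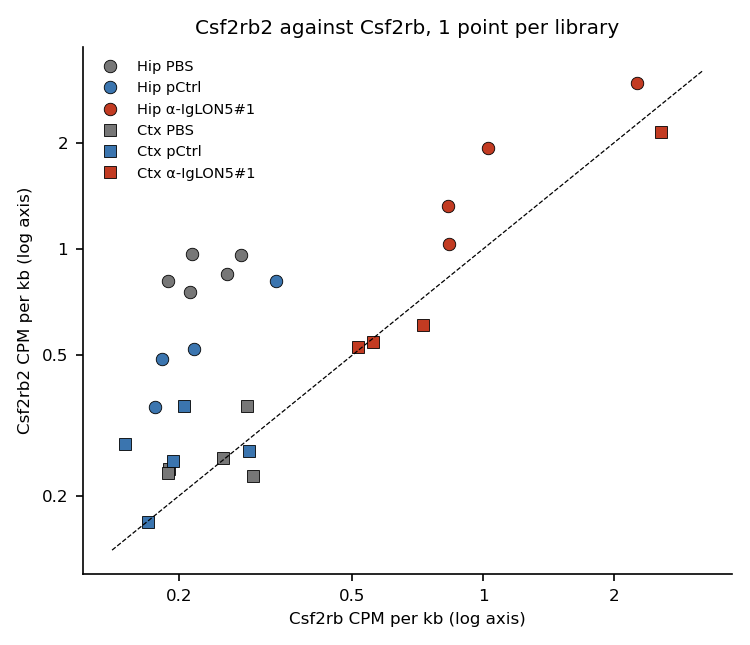
Csf2rb2 against Csf2rb in CPM per kb of exon (both axes logarithmic), 1 point per library, circles for hippocampus and squares for cortex; the dashed line marks equal levels. Hippocampal control libraries lie above the line, at a Csf2rb level like that of the cortical controls, and α-IgLON5#1 libraries of both tissues lie to the right.

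RefSeq promoters were at hand for Csf1, Csf2ra, Csf2rb2 and Csf3r, which is 4 of the 7 genes. The letters GAGGAA, the core that PU.1 (the product of Spi1) binds, were searched on both strands in the 250 bases before the start of transcription. They occurred 1 time for Csf2rb2 (position −167 from the start), 1 time for Csf3r (−86), 2 times for Csf2ra (−14 and −8) and not for Csf1. Of 32851 promoters in the RefSeq table, 23.3% held a match in the same 250 bases. The stretch of Csf2rb2 is shown as an example, and those of Csf3r and Csf2ra, which also held matches, are not shown. It lies at chr15:78305722-78305971 of GRCm38.p6 and is written 5′ to 3′ on the minus strand, with the match in capitals as its reverse complement.
Csf2rb2 promoter: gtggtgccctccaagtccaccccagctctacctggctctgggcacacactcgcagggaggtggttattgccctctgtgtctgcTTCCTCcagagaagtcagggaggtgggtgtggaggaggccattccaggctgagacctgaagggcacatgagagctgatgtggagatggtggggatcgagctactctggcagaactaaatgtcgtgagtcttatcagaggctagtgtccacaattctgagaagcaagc
A match of these letters is a description of the sequence and was not tested as a binding site.

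Csf2ra, the alpha chain that makes the GM-CSF receptor specific, changed least among the receptor genes that passed. In the cortex α-IgLON5#1 mice 8, 9, 16 and 17 held 35.2, 39.3, 40.5 and 34.1 CPM, and pCtrl mice 10, 11, 15, 37 and 75 held 25.1, 32.4, 27.8, 32.0 and 26 CPM. The groups did not overlap, which held in either direction for 6.35% of all genes. The log2 fold change was 0.38 ± 0.09 (SE, adjusted p = 0.0156, edgeR). Leaving out pCtrl mouse 10 or α-IgLON5#1 mouse 9 took it above the threshold, to adjusted p of 0.0639 and 0.0548, and fitting the compared groups alone gave 0.40 with an adjusted p of 0.0532 (edgeR). In the hippocampus the α-IgLON5#1 libraries held 38.9, 40.6, 37.9 and 35.1 CPM and the pCtrl libraries 29.4 to 34.2 CPM, and the log2 fold change of 0.28 ± 0.10 did not pass (SE, adjusted p = 0.0799, edgeR). Against PBS the values were 0.26 in the hippocampus (adjusted p = 0.127, edgeR) and 0.31 in the cortex (adjusted p = 0.0713, edgeR), and with single libraries left out the adjusted p ran from 0.0382 to 0.337 and from 0.0118 to 0.253 (edgeR), passing in each tissue only without the library of PBS mouse 38. The alpha and beta chains thus stood at unlike levels: per kb of exon, Csf2ra had a mean of 10.9 CPM in hippocampal pCtrl libraries and 13.3 CPM with α-IgLON5#1, and Csf2rb 0.227 and 1.24 CPM.

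Csf3r, the G-CSF receptor gene, rose in both tissues and against both controls, with the smallest adjusted p of the 7 genes in each of these comparisons. In the hippocampus α-IgLON5#1 mice 8, 9, 16 and 17 held 22.4, 27.9, 23.1 and 16.4 CPM. The pCtrl libraries of mice 10, 15, 37 and 75 held 7.36, 9.82, 6.81 and 6.63 CPM, and the PBS libraries 5.86 to 7.85 CPM. In the cortex the α-IgLON5#1 libraries held 23.2, 16.4, 15.3 and 14.4 CPM, the pCtrl libraries 5.49 to 9.58 CPM and the PBS libraries 6.16 to 7.56 CPM. Every α-IgLON5#1 library lay above every control library, and mouse 8 was not the highest in the hippocampus. Against pCtrl, the groups did not overlap, in either direction, for 11.7% of all genes in the hippocampus and 6.35% in the cortex. The log2 fold change against pCtrl was 1.55 ± 0.17 in the hippocampus (SE, adjusted p = 1.57e-06, edgeR) and 1.18 ± 0.16 in the cortex (SE, adjusted p = 4.41e-05, edgeR). Against PBS it was 1.71 ± 0.16 (SE, adjusted p = 7.18e-08, edgeR) and 1.31 ± 0.16 (SE, adjusted p = 9.61e-06, edgeR). The difference between the tissues in the response over pCtrl was 0.37 with a 95% interval of −0.11 to 0.85.

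Csf3r is a marker of neutrophils, so the neutrophil list was set beside it. Of 9 listed markers, 5 had enough counts to be tested and 0 passed in either tissue against either control with edgeR, with 1 at an unadjusted p under 0.05 (cortex against PBS). Their summed level was 0.676, 2.11 and 2.78 CPM in the hippocampus of α-IgLON5#1 mice 9, 16 and 17, against 1.94 to 5.81 CPM with pCtrl and 1.27 to 2.67 CPM with PBS. In the cortex it was 0.83, 1.21 and 2.37 CPM in the same mice, against 1.23 to 4.77 CPM with pCtrl and 1.04 to 3.15 CPM with PBS. Mouse 8 alone stood higher in this sum, at 8.51 CPM in the hippocampus and 15.4 CPM in the cortex. In its cortical library Cxcr2, a neutrophil chemokine receptor gene, had 60 counts against at most 5 in the 25 libraries of other mice. S100a8 and S100a9 had 146 and 273 there, against at most 54 and 83, and Retnlg and Mmp8 had 16 and 18, against at most 10 and 13. Camp, Ngp and Ltf did not stand out there, with 5, 25 and 22 counts against at most 15, 38 and 42. Ly6g, a defining neutrophil gene, was at 0 in both libraries of mouse 8 and in 20 of the other 25, with at most 2 counts in any. Of 6 monocyte markers, 1 rose in the hippocampus (Ly6c2) and 5 in the cortex (all but Vcan) against pCtrl, where 4.23% and 3.01% of all genes were higher, and the median log2 fold changes of the list were 2.33 and 3.29. Without both libraries of mouse 8, 1 of the 5 markers still tested rose in each tissue (Ly6c2), and the medians over these 5 were 1.25 and 1.65. In the fit without mouse 8, 2.83% and 1.78% of all genes were higher. The level summed over all 6 was 26.7 to 48.1 CPM in hippocampal and 26.4 to 58.0 CPM in cortical α-IgLON5#1 libraries against 24.1 to 31.5 and 22 to 26.1 CPM with pCtrl. Vcan, which stood at −0.01 and 0.06 on the log2 scale, made up most of that sum except in the cortex of mouse 8. Without Vcan the sums were 3.32 to 21.4 CPM in hippocampal and 2.67 to 32.2 CPM in cortical α-IgLON5#1 libraries, against 1.20 to 3.42 and 0.876 to 2.03 CPM with pCtrl, and leaving out mouse 8 brought the highest to 8.65 and 8.77 CPM. The part of neutrophils and monocytes in the receptor changes was not tested.

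**Figure D4:**
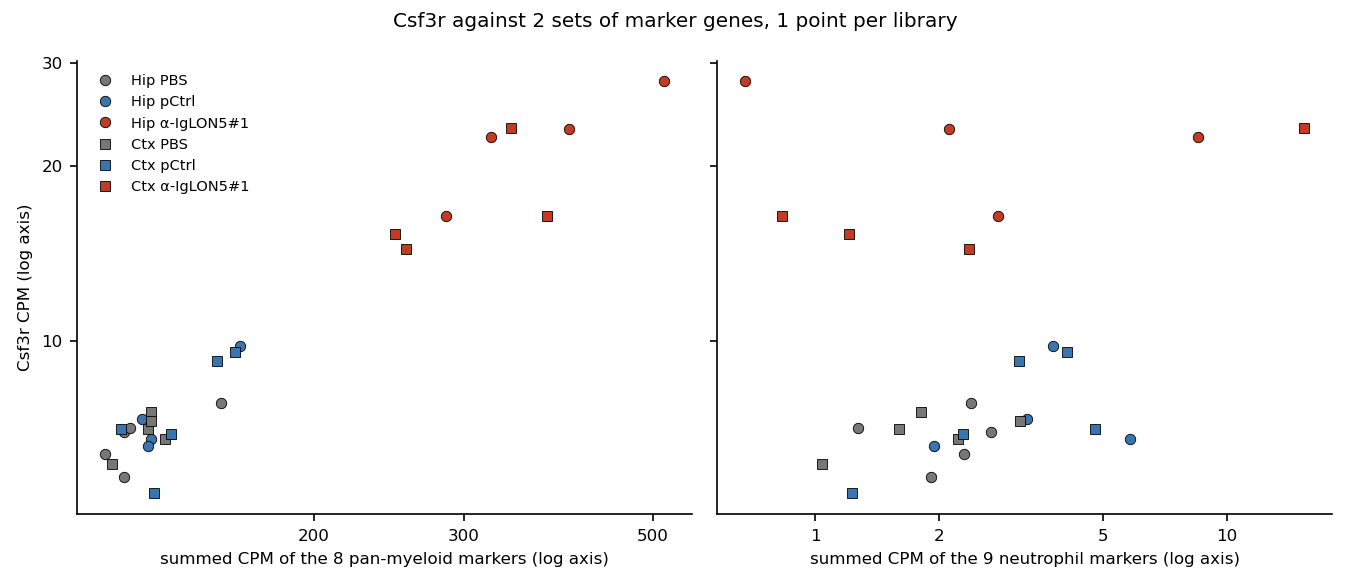
Csf3r in CPM (vertical, logarithmic) against the summed CPM of 8 pan-myeloid markers and of 9 neutrophil markers (horizontal, logarithmic), 1 point per library, circles for hippocampus and squares for cortex. All α-IgLON5#1 libraries are high in Csf3r and in pan-myeloid markers, and 6 of these 8 lie within or below the control range of neutrophil markers.

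The ligands of these receptors other than Csf1 and Il34 were hardly counted. Csf2 and Il3 had 1 count each in all libraries together, where 3 counts would be the limit that a count of 0 allows in 1 library, and Il5 had at most 14 in any library. Csf3, the gene of G-CSF, had 121 counts in all, of which 66 were in the cortex and 16 in the hippocampus of mouse 8. No other library held more than 5 counts of Csf3. The transcripts of Csf2 and Il3 were thus not detectable above this limit at this depth in either tissue.

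**Figure D5:**
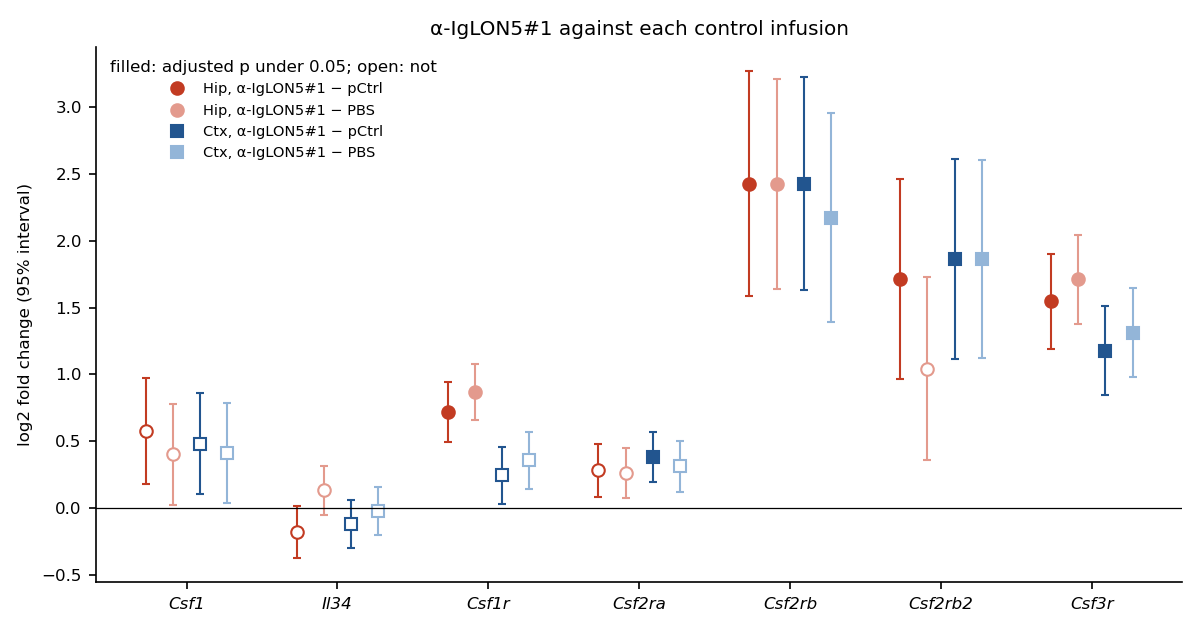
Log2 fold change of each gene with α-IgLON5#1 (vertical axis, 95% interval from the edgeR fit) against pCtrl and against PBS, circles for hippocampus and squares for cortex; filled symbols have an adjusted p under 0.05. The beta chain genes and Csf3r lie highest, and the intervals of Il34 span 0.

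In the PBS mice, with no antibody, Il34 was higher and Csf2rb2 lower in the cortex than in the hippocampus. Il34 was higher in the cortex (48.2, 50.0, 53.2, 47.7 and 53.9 CPM in mice 14, 32, 33, 38 and 74) than in the hippocampus (26.9, 33.4, 32.2, 38.8 and 27.1 CPM), with a log2 fold change of 0.68 ± 0.08 (SE, adjusted p = 8.42e-07, edgeR). Csf1 stood the other way, at 19.6, 23.9, 21.5, 23.3 and 21.5 CPM in the cortex and 34.4, 31.7, 29.2, 25.2 and 29.7 CPM in the hippocampus of the same mice. Neither ligand's tissues overlapped, which held in either direction for 17.8% of all genes. The Csf1 difference was −0.45 ± 0.17 (SE, adjusted p = 0.0564, edgeR) without pairing and −0.45 (adjusted p = 0.00198, edgeR) with the mouse as a replicate block. With single libraries left out it ran from −0.51 (adjusted p = 0.0413, edgeR, without the hippocampal library of PBS mouse 38) to −0.40 (adjusted p = 0.127, edgeR, without that of PBS mouse 14). Csf2rb2 was lower in the cortex by all 5 libraries, from 3.58 to 4.58 CPM in the hippocampus to 1.08 to 1.70 CPM, a log2 fold change of −1.73 ± 0.35 (SE, adjusted p = 0.000398, edgeR). Thus 1 of 7 genes was higher and 1 lower in the cortex without pairing, where 14.1% of all genes were higher and 12.7% lower. Csf1r, Csf2ra, Csf2rb and Csf3r did not pass, with log2 fold changes between −0.08 and 0.12 and 95% intervals that reach furthest for Csf2rb (−0.70 to 0.86).

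Levels can be ordered per kb of exon. In hippocampal PBS libraries Csf1r (17.8 ± 1.75 CPM per kb, SD, n = 5) and Il34 (16.2 ± 2.52) were highest and within each other's spread, followed by Csf2ra (11.1 ± 1.17), Csf1 (5.68 ± 0.642), Csf3r (1.90 ± 0.208), Csf2rb2 (0.871 ± 0.093) and Csf2rb (0.229 ± 0.0364). In the cortex Il34 (25.8 ± 1.45) was above Csf1r (19.4 ± 0.376), and Csf2rb2 (0.262 ± 0.0549) and Csf2rb (0.242 ± 0.0513) were within each other's spread. With α-IgLON5#1 the hippocampal means kept the same order, with Csf1r at 32.6 ± 8.33 (SD, n = 4) beyond the spread of Il34 at 17.7 ± 1.06, and Csf3r at 6.21 ± 1.31 within the spread of Csf1 at 7.54 ± 2.35.

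A list of 43 other genes of these pathways was followed, of which 38 could be tested. In the hippocampus 20 of the 38 rose with α-IgLON5#1 over pCtrl and none fell, where 4.23% of all genes were higher, and the median over the 38 was 0.75 on the log2 scale. In the cortex 15 rose and none fell, where 3.01% of all genes were higher, with a median of 0.56. Among the largest changes in the hippocampus were those of the Src family kinase gene Fgr (3.41 ± 0.75, SE, adjusted p = 0.00532, edgeR), the phosphatase gene Ptpn6, a brake on CSF receptor signalling (2.14 ± 0.23), the phosphoinositide 3-kinase subunit gene Pik3r5 (2.08 ± 0.31), and Spi1, the gene of the myeloid transcription factor PU.1 (1.78 ± 0.27). All of these also rose in the cortex, where Fgr stood at 4.43 ± 0.74 and Spi1 at 1.47 ± 0.26. The size of the Fgr change rested in part on mouse 8: cortical α-IgLON5#1 mice 8, 9, 16 and 17 held 8.31, 1.55, 0.452 and 0.771 CPM of Fgr, against at most 0.165 CPM with pCtrl. Without both libraries of mouse 8 it was 2.60 ± 0.43 in the hippocampus (SE, adjusted p = 0.00037, edgeR) and 2.82 ± 0.44 in the cortex (SE, adjusted p = 0.000351, edgeR), and the counts over the list were again 20 and 15 of 38, with medians of 0.59 and 0.28. In the fit without mouse 8, 2.83% of all genes were higher in the hippocampus and 1.78% in the cortex. By role, 11 of 18 adaptor and kinase genes, 2 of 5 brake genes, 6 of 11 transcription factor genes and 1 of 4 tested receptor genes rose in the hippocampus. That receptor was Trem2 (0.96 ± 0.13, adjusted p = 2.36e-05, edgeR), which signals through the adaptor Tyrobp (1.29 ± 0.17, adjusted p = 1.14e-05, edgeR), as CSF1R signalling does in part. In the cortex Tyrobp rose (0.92, adjusted p = 0.000471, edgeR), and Trem2 stood at 0.19 (adjusted p = 0.507, edgeR). Jak2, a kinase gene that many cytokine receptors use, stood at −0.036 in the hippocampus and 0.065 in the cortex and did not pass. All 8 pan-myeloid markers also rose in both tissues, and so did B cell markers, 4 of 5 in the hippocampus and 2 of 5 in the cortex. When both libraries of mouse 8 were left out, 3 B cell markers had enough counts and 1 rose in each tissue. The summed level of the B cell markers was 1.92 to 7.92 CPM with α-IgLON5#1 and 0.833 to 1.20 CPM with pCtrl in the hippocampus, and 1.44 to 6.52 CPM and 0.753 to 1.20 CPM in the cortex. Of 6 T cell markers, 3 could be tested and 1 rose in each tissue, Cd4 in the hippocampus and Cd3g in the cortex, and neither of the 2 still tested without mouse 8 passed. The summed T cell level was 2.08 to 4.58 CPM with α-IgLON5#1 and 0.857 to 2.01 CPM with pCtrl in the hippocampus, and 2.35 to 4.05 CPM and 0.998 to 1.65 CPM in the cortex. Gfap, the astrocyte filament gene, rose by 1.31 in the hippocampus (adjusted p = 0.00262, edgeR) and 1.46 in the cortex (adjusted p = 0.000477, edgeR) and was the only 1 of 6 astrocyte markers to pass over pCtrl. Lyve1, a marker of border macrophages, had log2 fold changes over pCtrl of −1.81 in the hippocampus (adjusted p = 0.000581, edgeR) and −1.35 in the cortex (adjusted p = 0.00425, edgeR), and none of the other 6 border macrophage markers tested passed. Of 9 neuronal markers, 2 were lower over pCtrl in the hippocampus and 0 in the cortex. Against PBS 0 passed in either tissue, and 0 passed over pCtrl without both libraries of mouse 8. The summed hippocampal level of the neuronal markers was 6000 to 6350 CPM with α-IgLON5#1, 6450 to 7440 CPM with pCtrl and 6220 to 6940 CPM with PBS. The part of all these cells in the changes was not tested.

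The genes whose log2 CPM followed each member most closely over the 27 libraries differed by member. Csf1r ran with Laptm5 and Trem2 (Pearson r 0.958 and 0.946), Csf3r with Itgb2, Nckap1l and Ctss (0.975, 0.972 and 0.971), and Csf2rb with Ctsc, Igsf6 and Clec7a (0.962, 0.962 and 0.959). Csf1 and Csf2rb2 shared neighbours: Slc14a1 and Serpina3n were among the 3 nearest genes of both, at 0.922 and 0.918 for Csf1 and 0.932 and 0.952 for Csf2rb2. Slc14a1 encodes a urea transporter and Serpina3n a secreted protease inhibitor that reactive astrocytes make. Il34 ran with Plxnd1, Rasgef1b and Adap1 (0.967, 0.967 and 0.966), and Csf2ra, with weaker neighbours, with Hpn, Gmip and Ssh3 (0.859, 0.854 and 0.847). Between members, r was 0.922 for Csf2rb and Csf3r, 0.889 for Csf1r and Csf3r, 0.877 for Csf1 and Csf2rb2, and −0.63 for Csf1 and Il34. These libraries share tissue, infusion group and, in pairs, the mouse, and the values are descriptions.

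The α-IgLON5#1 mice carry low numbers (8, 9, 16 and 17) that only some control mice share. With mice numbered 8 to 17 alone, 1 of the 7 genes passed against pCtrl in the hippocampus (Csf3r, adjusted p = 0.0397, edgeR) and 0 in the cortex, where 5 had an unadjusted p under 0.05, with log2 fold changes of 0.67 for Csf1r, 2.16 for Csf2rb and 1.43 for Csf2rb2 in the hippocampus. The cortical values were 2.25 for Csf2rb, 1.74 for Csf2rb2, 1.02 for Csf3r and 0.40 for Csf2ra. In those fits 0.277% of all genes were higher in the hippocampus and 0.0512% in the cortex. Only 2 pCtrl mice remained in the hippocampus and 3 in the cortex in that comparison.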

How the data were processed

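Contralateral hippocampus and cortex were dissected, poly(A) RNA was made into libraries with a strand-marking kit and sequenced as read pairs of 75 cycles. The authors aligned the reads to GRCm38 with STAR and deposited raw counts per gene and library, 1 column per library. The counting program, annotation, strand setting and handling of multiply mapped reads are not given in the sources used here. Of 55487 identifiers, 55227 matched GENCODE M21 without their version.

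The 20271 genes that reached 10 counts in 4 or more libraries were fitted in edgeR 4.0.16 (R 4.3.3) with TMM factors, 6 groups in 1 model and the quasi-likelihood test. P-values were adjusted by Benjamini-Hochberg, and 0.05 was the threshold. SE is the log2 fold change divided by the root of F, and CPM uses TMM-scaled totals. Whether mice were processed in batches is not given in the sources used here. Single values per library were compared by exact two-sided permutation tests. The procedure was tested on simulated counts. Alternatives were DESeq2 1.42.0, RLE factors, other count filters, fits of the compared groups alone, summed beta chain copies, a composition covariate, a replicate block, mice 8 to 17 alone and leaving out each library. Leaving out mice 32 to 38 or mouse 8 was chosen after seeing the data. The 7 genes and all lists were chosen with earlier results of these data known. All 7 genes are named, with the 5 pathway genes of largest change in the hippocampus over pCtrl past the threshold and the 3 genes most correlated with each member, and other genes were named after their values were seen. Some genes that this rule picks are not reported here.

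The number opening each title was taken as the mouse, which pairs the tissues of 13 mice. Deviations from the group means correlated between a mouse's tissues by −0.05 to 0.443, above 0.1 in 8 of 13.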

Additional observations from a re-analysis of the deposited data

Results flagged for a closer look

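Within each group, the library furthest from the others was compared with the group's whole range by Dixon's criterion, for 7 genes in 6 groups. Of 42 groups tested, 4 held such a library, where chance alone marks about 1 group in 20. Mouse 8 accounted for 3 of them: Csf2rb at 18.7 CPM in the cortex and 16.5 CPM in the hippocampus, and Csf2rb2 at 10.2 CPM in the cortex, each far above the other 3 α-IgLON5#1 libraries. The summed levels of its neutrophil and monocyte markers were also the highest of its group, at 15.4 and 58.0 CPM in the cortex, though not every marker was raised. The part of these cells in these values was not tested. The remaining library was the cortex of PBS mouse 38, with Csf2rb2 at 1.70 CPM above the other 4 PBS libraries. No gene's response to α-IgLON5#1 over pCtrl passed the test of a difference between the tissues.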

How the results depend on the processing

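The 16 values of single genes that passed kept their direction in all 282 alternative fits and lost the call in 16. Of the values that did not pass, 23 given in the text were followed in the same way, and these gained a call in 25 of 427 fits and changed sign in 5. The causes were not tested. Of the 7 genes, the number past the threshold for α-IgLON5#1 over pCtrl was 1 in the hippocampus and 0 in the cortex with mice 8 to 17 alone, and 2 in the cortex with the compared groups fitted alone (Csf2ra and Csf2rb2 lost the call). In these fits 0.277%, 0.0512% and 1.6% of all genes were higher. For α-IgLON5#1 over PBS in the cortex it was 5 with DESeq2, 5 with no count filter and 1 without mice 32 to 38, where 3.29%, 1.69% and 0.746% of all genes were higher. For pCtrl over PBS in the hippocampus it was 1 with DESeq2 and 1 without mice 32 to 38, where 1.64% and 0.0202% of all genes were higher, and 0 to 1 when single libraries were left out. The Csf1r difference from microglia markers, with single libraries left out, ranged from 0.291 to 0.405 over pCtrl in the hippocampus, from 0.15 to 0.263 over pCtrl and 0.163 to 0.276 over PBS in the cortex, and for pCtrl over PBS from −0.00239 to 0.085 in the hippocampus and −0.00825 to 0.037 in the cortex. Set against pan-myeloid markers instead, it was lower with α-IgLON5#1 in both tissues.

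Signs changed for Il34, at 0.000175 with no count filter (cortex, α-IgLON5#1 over PBS) and 0.033 with the composition covariate (hippocampus, over pCtrl), and in PBS cortex over hippocampus with single libraries left out for Csf2rb (−0.000361 to 0.159) and Csf3r (−0.021 to 0.08). Without mice 32 to 38, chosen after seeing the data, Csf2rb2 stood at 1.56 in the hippocampus over pCtrl (adjusted p = 0.0954, edgeR), and Csf2rb and Csf2rb2 at 2.56 and 2.05 in the cortex over PBS (0.0784 and 0.144), and Il34 in the hippocampus over PBS passed at 0.36 (0.00699). The mouse as a replicate block was fitted only for PBS cortex over hippocampus and for the tissue difference of the response over pCtrl. There Csf1 in PBS cortex over hippocampus was −0.45 with an adjusted p of 0.00198 (edgeR), and no other call of the 7 genes changed. The comparisons between infusion groups were not refitted in this way. At 24 to 129 counts per control library, Csf2rb and Csf2rb2 in cortex and Csf2rb in hippocampus rest on the fewest reads.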
